A study of Mus musculus with 18 samples.

Results

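Collagen chain genes encode the polypeptides that assemble into the collagens of the extracellular matrix. The genes were taken as the rows of a mouse RNA-seq table named Col, a number, a and a number, with a mean count of at least 10 over the 6 libraries of at least 1 tissue. Of 44 rows with such a name, in a table of 34745, 43 met the minimum. The one that did not, Col10a1, a growth plate cartilage chain, had a highest tissue mean of 3 counts, and the nearest chain inside the minimum, Col9a1, had 20.5. The 43 chains comprised 11 fibrillar chains, 6 basement membrane chains (Col4a1 to Col4a6) and 26 other chains: 6 of type VI, 9 FACIT, 4 transmembrane, 2 multiplexin, 2 network-forming and 3 remaining. The minimum was reached by 43 chains in brain, by 30 in kidney and by 34 in gastrocnemius, and by 28 in all 3 tissues.

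Fibrillar chains such as Col1a1, Col1a2 and Col3a1 build the banded fibrils that give tendon, skin and fascia their tensile strength. Type IV chains form the sheet-like network of basement membranes: Col4a1 and Col4a2 make the network found beneath most endothelia and epithelia and around muscle fibres, while Col4a3, Col4a4 and Col4a5 make that of the mature glomerular filter in the kidney. The other chains include the microfibrils of type VI, the FACIT chains on the surface of fibrils, the multiplexins Col15a1 and Col18a1 at the border of basement membranes, and transmembrane chains, of which Col25a1 is made by neurons.

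PolyA RNA was measured in brain, kidney and gastrocnemius (a calf muscle) of wild-type male C57BL/6 mice, with 3 SeMSNs and 3 old control libraries per tissue, 18 in all. SeMSNs, a nano-selenium supplement, were given from 18 months of age and controls received saline by gavage; tissues were collected at 23 months. The dose is stated in 2 ways, as 5 mg/kg, 2 doses in every 2 days from a solution of 1 mg/mL, and as 10 mg/kg by gavage each day. All groups were old, and the labels do not say whether the libraries of a group came from separate mice, so the tests speak only of the spread among the libraries, part of which may be technical. In bulk tissue, fewer cells of a type and less RNA per cell cannot be told apart.

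Total counts per library ranged from 17357799 to 22146406. Tissue markers matched the labels: summed levels in FPKM (fragments scaled for gene length and library total) were 567 to 812 for 6 brain genes in brain, 2630 to 3362 for 6 kidney genes in kidney and 36208 to 51653 for 7 muscle genes in gastrocnemius. Some libraries stood apart. In brain, 10 cerebellar genes summed to 990, 897 and 15.2 FPKM in SeMSNs libraries 1, 2 and 3 and to 19.9 to 26.5 in controls. Brain control library 2 held skeletal muscle transcripts, 397 FPKM over the 7 muscle genes against 2.15 to 5.70 in the other brain libraries. In kidney, 8 tubular injury genes summed to 87.1, 102 and 150 FPKM in controls and to 86.8, 77.3 and 71.5 with SeMSNs. In gastrocnemius, 8 fibroblast genes summed to 82.6, 149 and 265 FPKM in controls and to 144, 140 and 140 with SeMSNs.

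Different chains led in each tissue. Brain was led by the type VI chain Col6a1 at 23.4 ± 16.3 FPKM (SD, n = 6), followed by Col4a2 at 13.04 ± 4.52 and Col4a1 at 9.91 ± 3.34. Col4a2 was above Col4a1 in every brain library, with a ratio of Col4a1 to Col4a2 of 0.68 to 0.833. Col6a1 was above Col4a2 in controls, at 24.7 to 51.8 against 14.1 to 17.2. With SeMSNs the ranges of Col6a1 and Col4a2 overlapped, at 7.55 to 19.9 and 6.91 to 16.6. Kidney was led by 4 type IV chains that together held 66.2% of the collagen FPKM: Col4a3 at 22.8 ± 3.23, Col4a1 at 22.2 ± 4.78, Col4a4 at 19.8 ± 2.29 and Col4a2 at 17.2 ± 3.38 FPKM (SD, n = 6). Gastrocnemius was led by Col4a1 at 13.1 ± 5.81 and Col4a2 at 12.4 ± 4.08 FPKM, which did not differ beyond their spread, with Col7a1, the anchoring fibril chain, next at 5.78 ± 1.72 (SD, n = 6).

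**Figure D1:**
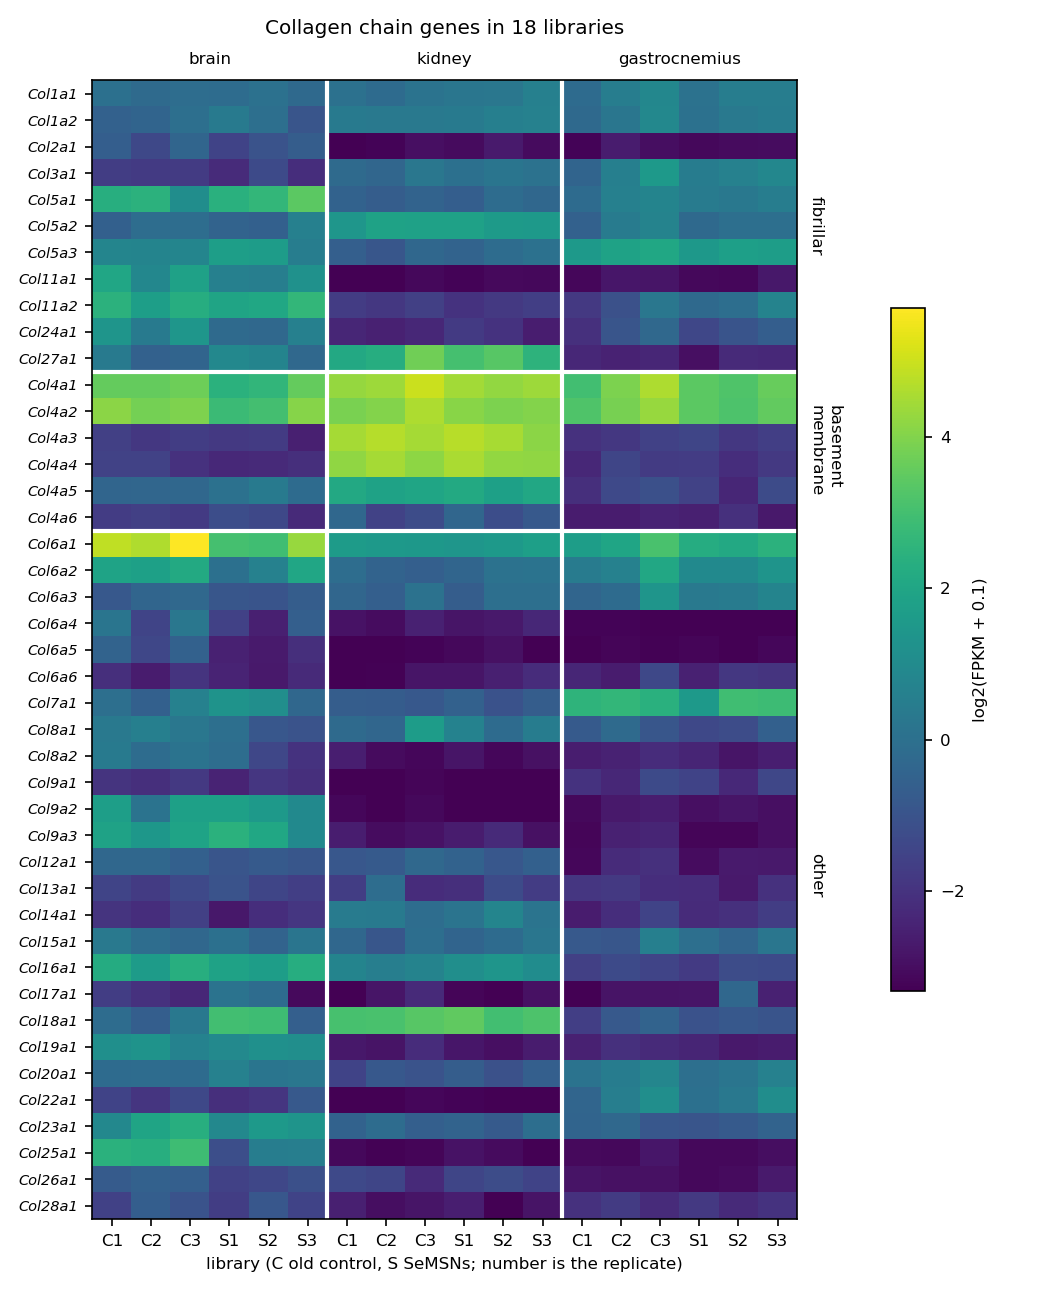
Level of the 43 collagen chain genes (grouped as fibrillar, basement membrane and other) in the 18 libraries (columns; C, old control; S, SeMSNs), as log2(FPKM + 0.1). Col4a3 and Col4a4 are high in all 6 kidney libraries and low elsewhere, and Col18a1 is high in kidney and in brain libraries S1 and S2.

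Basement membrane chains made up 69.8% ± 2.59 (SD, n = 6) of the collagen FPKM in kidney, 44.8% ± 5.33 in gastrocnemius and 23.8% ± 4.44 in brain. The ranges of the 6 libraries did not overlap between tissues: the lowest kidney share was 66.6% and the highest gastrocnemius share 50.2%, and the lowest gastrocnemius share was 37.3% and the highest brain share 29.2%. Other chains held the largest share in brain, 55.1% ± 6.64, against 36.4% ± 4.38 in gastrocnemius and 17.6% ± 1.35 in kidney. Fibrillar chains held 21.1% ± 5.5 in brain, 18.8% ± 1.51 in gastrocnemius and 12.6% ± 2.37 in kidney. The brain share was 19.3%, 16.8% and 13.1% in controls and 25.4%, 26.2% and 25.6% with SeMSNs, without overlap. The brain fibrillar sum was 19.1 ± 2.99 FPKM in controls and 21.7 ± 3.67 with SeMSNs (SD, n = 3). Gastrocnemius controls, at 17.2%, 18.3% and 17.3%, lay inside the range of brain controls, so in controls brain did not stand above muscle.

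**Figure D2:**
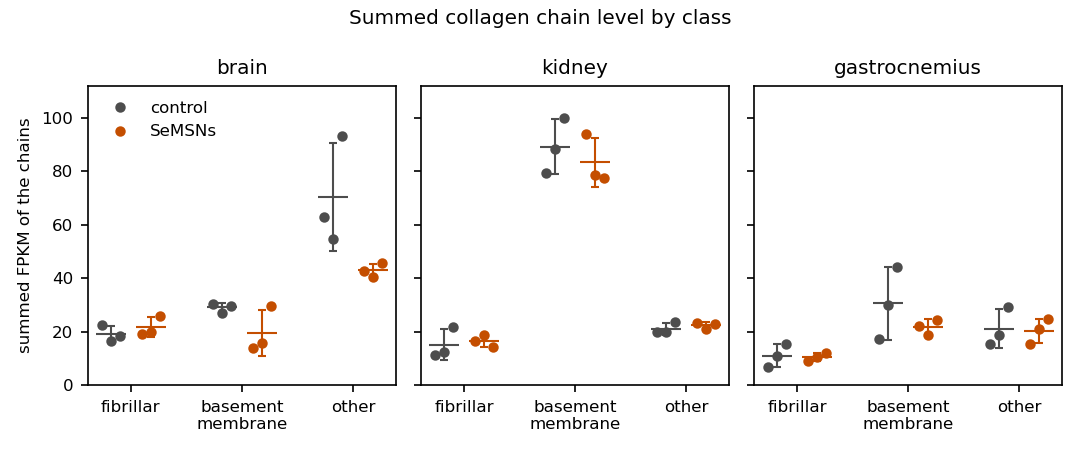
Summed FPKM of the fibrillar, basement membrane and other collagen chains in brain, kidney and gastrocnemius; each point is 1 library (grey, old control; orange, SeMSNs), with the mean and SD of 3 libraries. All 6 kidney basement membrane sums are 77.4 FPKM or more, and the only other sum above that value is that of the other chains in brain control library 3, 93.2.

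The 9 old control libraries were compared between tissues with the quasi-likelihood F test of edgeR, with p-values adjusted by Benjamini-Hochberg over the 17252 genes tested and a threshold of 0.05. Kidney differed from brain in 34 of 43 chains, beside 70.9% of all genes; 13 were higher in kidney and 21 lower, beside 34.1% and 36.9%. Gastrocnemius differed from brain in 31 chains, beside 71.5%; 14 were higher and 17 lower, beside 32.1% and 39.4%. Gastrocnemius differed from kidney in 31 chains, beside 61.2%; 19 were higher and 12 lower, beside 28.2% and 32.9%. The median log2 difference of kidney from brain was 2.26 over basement membrane, −0.97 over fibrillar and −1.94 over other chains, beside −0.05 over all genes. Each tissue's control libraries serve in 2 of the 3 contrasts, and the median over all genes was −0.18 for gastrocnemius against brain and −0.07 for gastrocnemius against kidney.

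The same contrasts in the 9 SeMSNs libraries called 34, 34 and 30 chains, beside 70.7%, 71.6% and 62.9% of all genes. For each contrast 28 chains were called in both groups in the same direction, which is 82.4%, 90.3% and 90.3% of the control lists and 82.4%, 82.4% and 93.3% of the SeMSNs lists, and none was called in opposite directions. By mean FPKM in controls, brain was the highest tissue for 21 chains, kidney for 12 and gastrocnemius for 10. With SeMSNs the highest tissue was the same for 37 of 43. The 6 exceptions were Col1a1, Col1a2, Col12a1, Col13a1, Col15a1 and Col20a1.

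Among basement membrane chains, all 6 were called higher in kidney than in brain on TMM-scaled counts, most of all the glomerular chains. On FPKM the controls overlapped for Col4a2, at 14.1 to 17.2 in brain and 14.5 to 23.9 in kidney. Col4a3 stood at 0.224, 0.173 and 0.212 FPKM in brain control libraries 1 to 3 and at 22.1, 25.6 and 22.3 in kidney, a log2 fold change of 7.34 ± 0.203 (SE; edgeR adjusted p = 2.63e-08). Col4a4 stood at 0.239, 0.241 and 0.144 FPKM in brain and 18.4, 22.02 and 18 in kidney (7.04 ± 0.332; edgeR adjusted p = 7.58e-08). Both were also low in gastrocnemius controls, at 0.143 to 0.239 and 0.0998 to 0.273 FPKM, and there the log2 fold changes against kidney were −6.39 ± 0.195 and −6.11 ± 0.32 (edgeR adjusted p = 3.23e-08 and 2.13e-07). Kidney held 98.4% and 98% of their summed control FPKM over the 3 tissues.

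Col4a5, their X-linked partner in the glomerular network, was at 3.57 to 4.25 FPKM in kidney controls, 0.669 to 0.712 in brain and 0.134 to 0.355 in gastrocnemius. Col4a6, which joins Col4a5 in other basement membranes such as that of Bowman's capsule, was at 0.7, 0.247 and 0.329 FPKM in kidney controls. The broadly used pair was not called between kidney and muscle: for Col4a1 and Col4a2 the log2 differences of gastrocnemius from kidney were −0.09 ± 0.326 and 0.20 ± 0.26 (edgeR adjusted p = 0.843 and 0.523), which are not beyond the spread between libraries.

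**Figure D3:**
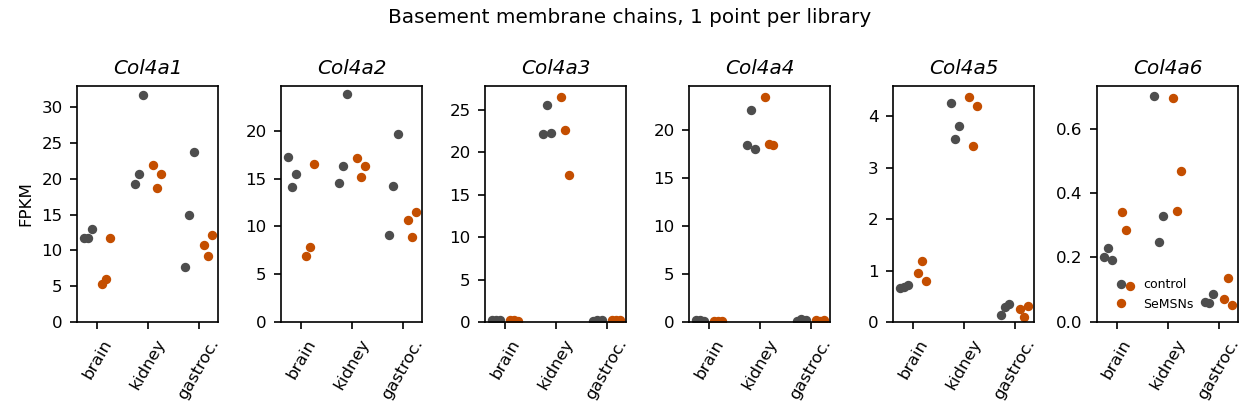
FPKM of the 6 basement membrane chains in brain, kidney and gastrocnemius; each point is 1 library (grey, old control; orange, SeMSNs), and each panel has its own vertical scale. Col4a3 and Col4a4 lie at 17.3 FPKM or more in every kidney library and at 0.273 or less elsewhere, and brain SeMSNs libraries 1 and 2 lie below the other brain libraries for Col4a1 and Col4a2.

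Type IV genes lie head to head in pairs, each transcribed outwards from a shared start region. In GRCm38, Col4a1 (ENSMUSG00000031502, chr8:11198423-11312826, minus strand) and Col4a2 (ENSMUSG00000031503, chr8:11312805-11449287, plus strand) overlap by 22 bases at their starts. Col4a4 (ENSMUSG00000067158, chr1:82448423-82586849, minus strand) and Col4a3 (ENSMUSG00000079465, chr1:82586921-82722059, plus strand) have 71 bases between them, and Col4a6 and Col4a5 on chromosome X have 1308. The start windows of Col4a1, Col4a2 and Col4a4 are shown because they lie in the start regions of the first 2 pairs; a Col4a3 window was not used here. They come from RefSeq, build GRCm38.p6, and run 300 bases, 250 before the start site and 50 from it on. Col4a1 is chr8:11312777-11313076 on the minus strand, Col4a2 is chr8:11312555-11312854 on the plus strand, and Col4a4 is chr1:82586800-82587099 on the minus strand and reaches over the Col4a3 gene start. Capitals mark matches, on either strand, to the CCAAT box and to the GC box.
Col4a1: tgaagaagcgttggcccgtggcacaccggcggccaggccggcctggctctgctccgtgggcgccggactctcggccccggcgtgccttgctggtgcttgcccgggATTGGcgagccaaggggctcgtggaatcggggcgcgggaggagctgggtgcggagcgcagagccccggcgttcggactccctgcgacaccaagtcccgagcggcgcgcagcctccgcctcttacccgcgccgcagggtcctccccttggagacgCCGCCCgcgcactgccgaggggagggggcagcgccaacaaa
Col4a2: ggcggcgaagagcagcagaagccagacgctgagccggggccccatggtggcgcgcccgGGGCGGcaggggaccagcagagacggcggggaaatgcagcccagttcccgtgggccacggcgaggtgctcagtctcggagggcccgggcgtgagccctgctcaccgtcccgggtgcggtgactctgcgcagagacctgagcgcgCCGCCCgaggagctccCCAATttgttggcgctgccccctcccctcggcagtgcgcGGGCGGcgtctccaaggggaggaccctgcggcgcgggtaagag
Col4a4: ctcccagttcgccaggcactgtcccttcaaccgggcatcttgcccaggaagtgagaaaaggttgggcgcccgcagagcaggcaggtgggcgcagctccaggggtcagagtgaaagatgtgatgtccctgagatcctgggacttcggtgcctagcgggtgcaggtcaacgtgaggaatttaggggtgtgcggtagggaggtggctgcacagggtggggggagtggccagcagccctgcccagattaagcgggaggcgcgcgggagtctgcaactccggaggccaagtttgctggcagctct
The Col4a1 and Col4a2 windows share 78 bases, read on opposite strands, and their GC contents are 74% and 73.7%. The CCAAT box was searched as CCAAT with its reverse complement ATTGG, which is CCAAT on the other strand. It occurred 1 time in the Col4a1 window and 1 time in that of Col4a2, and in 37.4% of 32851 windows of all genes. The GC box was searched as GGGCGG with its reverse complement CCGCCC. It occurred 1 time in the Col4a1 window and 3 times in that of Col4a2, and in 35.7% of all windows. The TATA box was searched as TATAAA with its reverse complement TTTATA. It was in none of the 3 windows and in 13.6% of all windows, and the Col4a4 window had no match to any of the 3 motifs. Within a window, no marked match overlaps another. The GC box of the Col4a1 window lies in the shared bases and is the same site as the last of the 3 in the Col4a2 window. Of 37 windows for 34 collagen chains, 35.1% held the CCAAT box, 62.2% the GC box and 10.8% the TATA box. The median GC content was 60% over these windows and 52.7% over all windows, and its part in the GC box share was not tested. A match is a run of letters and does not show that a factor binds there.

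Levels of Col4a1 and Col4a2 varied more than their ratio did. The ratio of Col4a1 to Col4a2 FPKM was 0.68 to 0.833 in the 6 brain libraries, over which Col4a1 itself varied 2.43-fold. In kidney the ratio was 1.24 to 1.33 and in gastrocnemius 0.841 to 1.21, while Col4a1 varied 1.69-fold and 3.09-fold. For Col4a3 and Col4a4 the ratio did not vary less than both chains in any tissue. In kidney their ratio was 0.941 to 1.24, a 1.32-fold range, while Col4a3 varied 1.53-fold and Col4a4 1.3-fold. The lowest ratio was that of SeMSNs library 3, and the kidney controls were at 1.16 to 1.24. In brain the ratio was 0.556 to 1.73 (3.11-fold), against 3.03-fold for Col4a3 and 2.24-fold for Col4a4. In gastrocnemius it was 0.64 to 1.43 (2.23-fold), against 1.87-fold and 2.73-fold. Mean counts of Col4a3 and Col4a4 were low in these 2 tissues, 34.5 and 31.8 in brain and 43 and 38.3 in gastrocnemius. The part of counting error in these ratios was not tested. The ratio of Col4a5 to Col4a6 was 6.08 to 14.4 in kidney. Reads in the 22 shared bases cannot be assigned without the counting strand, which the sources used here do not state. Of chains that share a trimer but not a start region, Col1a1 to Col1a2 had a ratio of 0.971 to 1.24 in gastrocnemius. That ratio was 0.679 to 0.983 in kidney and 0.696 to 1.75 in brain. In brain it varied 2.52-fold, while Col1a1 varied 1.25-fold and Col1a2 2.76-fold. Col6a1 to Col6a2 had a ratio of 2.04 to 2.6 in gastrocnemius, 2.96 to 4.79 in kidney and 5.07 to 11.97 in brain. All ratios are descriptions, over libraries that share tissue and depth.

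Fibrillar chains split between muscle, kidney and brain. Col3a1, the type III chain of soft connective tissue, was at 0.212, 0.192 and 0.194 FPKM in brain controls, 0.765, 0.681 and 1.09 in kidney and 0.642, 1.39 and 2.83 in gastrocnemius, and rose from brain to gastrocnemius by 4.06 ± 0.473 on the log2 scale (edgeR adjusted p = 3.08e-05). The type I chains Col1a1 and Col1a2 rose likewise, by 1.67 ± 0.246 and 1.80 ± 0.262 (edgeR adjusted p = 0.000166 and 0.000153). On FPKM the values of Col1a1 overlapped, at 0.897, 0.766 and 0.844 in brain, 0.939, 0.781 and 0.98 in kidney and 0.799, 1.32 and 1.69 in gastrocnemius. FPKM divides by the library total and the fitted fold by the TMM-scaled total, so the sizes differ between these scales.

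Col11a1, a cartilage-type fibrillar chain, was at 3.9, 1.72 and 3.46 FPKM in brain controls and had 4 counts in all in kidney controls (log2 fold change −8.72 ± 0.744; edgeR adjusted p = 3.28e-06). Col27a1 was the fibrillar chain of highest level in kidney, at 4.22, 4.78 and 13.3 FPKM in controls against 0.0836 to 0.101 in gastrocnemius (−5.76 ± 0.574; edgeR adjusted p = 1.43e-05). Kidney control library 3, with the highest tubular injury sum, was also highest for Col27a1, and the part of those cells in that level was not tested.

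Of the other chains, Col25a1 was the most confined to brain by share, with 99.4% of its summed control FPKM there. It was at 5.33, 4.98 and 7.34 FPKM in brain controls and had 7 counts in all in kidney controls (log2 fold change −8.92 ± 0.438; edgeR adjusted p = 9.37e-08), and in gastrocnemius against brain the value was −6.72 ± 0.379 (edgeR adjusted p = 2.34e-07). Col6a5 and Col6a4, neighbouring type VI genes on chromosome 9, were called lower in kidney and gastrocnemius than in brain. Col6a5 had 286 counts in brain controls, 1 in kidney and 3 in gastrocnemius, so its ratio per total count was 334 (exact 95% interval 59.4 to 13228) for brain over kidney and 108 (exact 95% interval 36.7 to 529) for brain over gastrocnemius. Col6a4 had 399 counts in brain and 2 in gastrocnemius, a ratio of 227 (exact 95% interval 62.4 to 1879). The FACIT chain Col9a2 had 492 counts in brain and 2 in kidney, a ratio of 287 (exact 95% interval 79.1 to 2377). These intervals cover counting error only.

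Col22a1 and Col7a1 were higher in muscle than in both other tissues. Col22a1, a FACIT chain of the myotendinous junction, was at 0.676, 1.37 and 2.1 FPKM in gastrocnemius controls and 0.254, 0.164 and 0.292 in brain (log2 fold change 3.59 ± 0.456; edgeR adjusted p = 5.73e-05). It had 797 counts in gastrocnemius and 2 in kidney, a ratio of 409 (exact 95% interval 113 to 3383). Col9a1 had 60 counts in gastrocnemius and 1 in kidney, a ratio of 61.6 (exact 95% interval 10.6 to 2472). Against brain its FPKM overlapped, at 0.147, 0.102 and 0.311 in gastrocnemius and 0.158, 0.13 and 0.181 in brain, while on TMM-scaled counts it was higher in muscle by 1.32 ± 0.506 on the log2 scale (edgeR adjusted p = 0.0379). Col7a1 was at 5.67, 6.24 and 5.22 FPKM in gastrocnemius controls, 0.873, 0.582 and 1.47 in brain and 0.539, 0.516 and 0.455 in kidney, higher in muscle by 3.65 ± 0.296 and 4.10 ± 0.304 on the log2 scale (edgeR adjusted p = 2.43e-06 and 1.81e-06). Col18a1, the source of endostatin, was instead a kidney chain in controls, at 8.42, 8.47 and 10.2 FPKM against 0.822, 0.54 and 1.11 in brain (3.96 ± 0.344; edgeR adjusted p = 3.74e-06); in SeMSNs libraries the difference was not called.

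For SeMSNs against old control, no chain passed in any tissue with edgeR. Of 43 chains tested in brain, 30 in kidney and 34 in gastrocnemius, 0 were called, beside 0.00622%, 0.00664% and 0.0228% of all genes. At an unadjusted p under 0.05 there were 11, 1 and 0 chains, beside 15.4%, 6.11% and 13% of all genes. DESeq2 called 5 chains in brain and 0 in both other tissues; limma on log2(FPKM + 1) called 0 in each. In simulated counts for these comparisons, edgeR called 75%, 93% and 87% of the genes changed 4-fold and 19%, 44% and 23% of those changed 2-fold, in the same order of tissues. The changed genes were drawn only from those above a minimum mean count. Simulated libraries varied independently, with none set apart by its tissue makeup, so these shares need not hold for every chain.

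**Figure D4:**
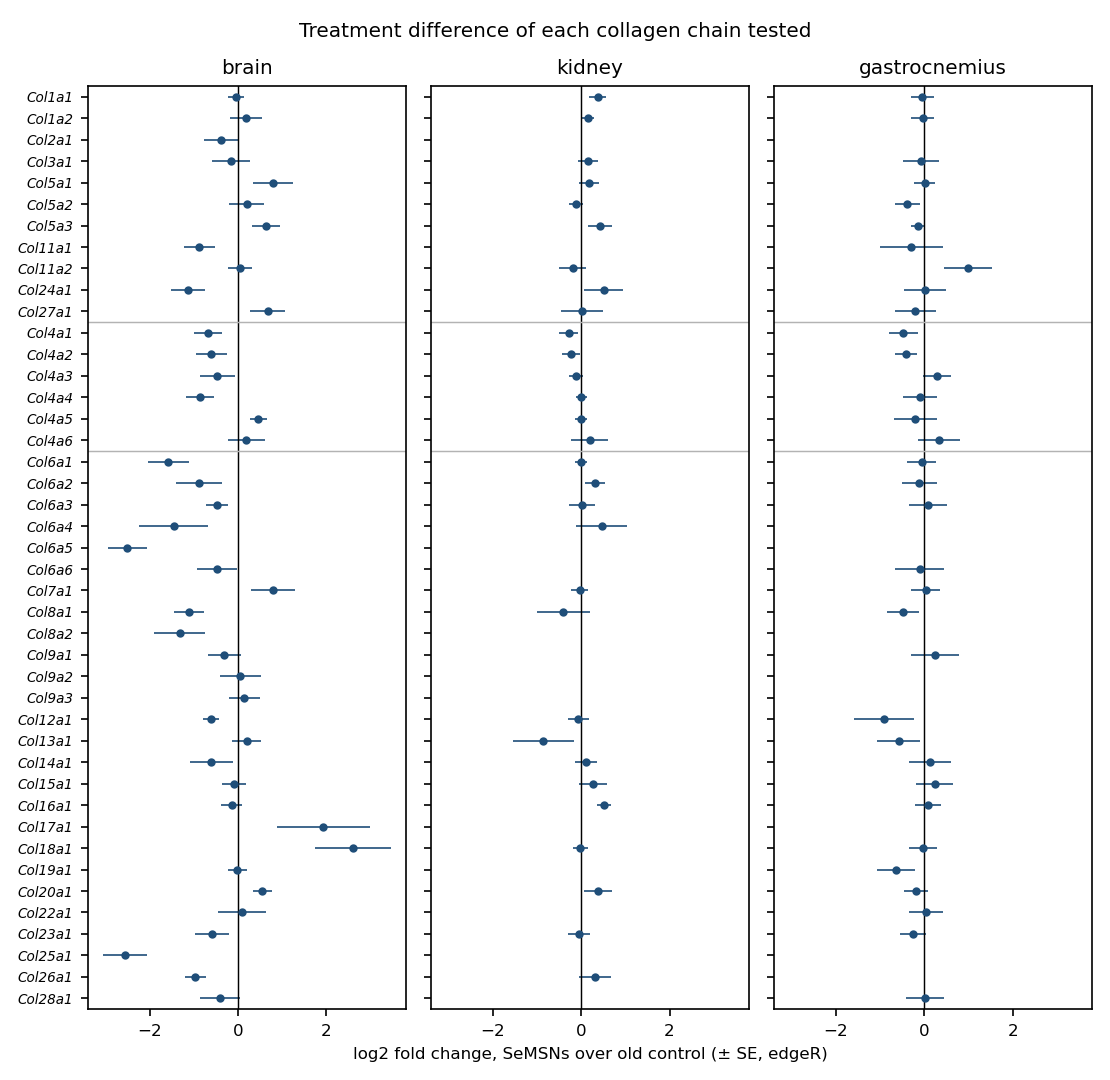
Log2 fold change of SeMSNs over old control, with its standard error from edgeR, for every collagen chain tested in brain (43), kidney (30) and gastrocnemius (34), ordered by class. The widest values are in brain, from −2.56 for Col25a1 to 2.61 for Col18a1, and no chain passed after adjustment.

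In brain the median log2 difference was −0.31 over the 43 chains and 0.01 over all 16082 genes tested; it was 0.04 for fibrillar, −0.54 for basement membrane and −0.44 for other chains. Of the 11 chains with an unadjusted p under 0.05, 9 were lower with SeMSNs, beside 8.03% of all genes: Col4a4, Col6a1, Col6a5, Col8a1, Col11a1, Col12a1, Col24a1, Col25a1 and Col26a1. The 2 higher ones were Col18a1 and Col20a1, beside 7.4%. FPKM did not overlap between groups for 9 of 43 chains, beside 21% of all genes, a share near the background; 7 were lower and 2 higher, beside 9.63% and 11.4%.

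Col25a1 and Col6a5 had the smallest p. Col25a1 was at 5.33, 4.98 and 7.34 FPKM in controls and 0.35, 1.32 and 1.36 with SeMSNs (log2 difference −2.56 ± 0.503; edgeR adjusted p = 0.255). Col6a5 was at 0.638, 0.282 and 0.603 against 0.0797, 0.0584 and 0.133 (−2.51 ± 0.447; edgeR adjusted p = 0.251). Every SeMSNs library was below every control for both. Their differences were −2.10 and −1.91 without the 2 cerebellar libraries, which leaves 1 SeMSNs library against 3 controls, and −2.65 and −2.78 without control library 2, which held muscle RNA.

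Markers of brain regions differed between these groups too. The 9 striatal genes, all 9 lower with SeMSNs, summed to 315, 93.9 and 460 FPKM in controls and 93.99, 87.98 and 40.3 with SeMSNs. The 9 hypothalamic genes, 6 tested and all 6 lower, summed to 415, 208 and 512 FPKM in controls and 57.5, 85.7 and 262 with SeMSNs. The 10 cerebellar genes, 9 tested, were all 9 higher. No gene of these lists was at 0 in all brain libraries, and the part of regional makeup in the values of the chains was not tested.

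Type VI chains differed among themselves. Col6a1 was at 28.1, 24.7 and 51.8 FPKM in controls and 8.02, 7.55 and 19.9 with SeMSNs, with no overlap (log2 difference −1.58 ± 0.469; edgeR adjusted p = 0.26), and without the 2 cerebellar libraries the difference was −0.79. Its partner Col6a2 was at 3.7, 3.39 and 4.33 against 0.909, 1.45 and 3.93 FPKM. Col6a3, the long chain of the same trimer, was at 0.459, 0.669 and 0.737 against 0.43, 0.405 and 0.539. Thus SeMSNs library 3 was below all controls for Col6a1 but within the control range for Col6a2 and Col6a3. Leptomeningeal markers, from the membranes around the brain, summed to 240, 220 and 194 FPKM in controls and 156, 170 and 112 with SeMSNs, 8 of 9 lower, and their part in the Col6a1 values was not tested.

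The next chains by p were Col26a1, Col12a1 and Col6a1. Col26a1 was at 0.495, 0.605 and 0.559 FPKM against 0.234, 0.275 and 0.36 (−0.97 ± 0.246; edgeR adjusted p = 0.255). The FACIT chain Col12a1 was at 0.713, 0.717 and 0.585 against 0.421, 0.493 and 0.438 (−0.62 ± 0.173; edgeR adjusted p = 0.255). The SeMSNs values lay below all controls in both chains. The network-forming chain Col8a2 was at 1.22, 0.819 and 0.987 against 0.826, 0.275 and 0.149 FPKM, and 9 choroid plexus genes summed to 531, 529 and 405 against 712, 136 and 16.3. Libraries 1, 2 and 3 with SeMSNs fall in the same order for both, but the controls do not. SeMSNs library 1 had the highest choroid plexus sum of the 6, while its Col8a2 was below control libraries 1 and 3. The part of choroid plexus tissue was not tested.

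Other brain differences followed the 2 cerebellar libraries. Col18a1 was at 0.822, 0.54 and 1.11 FPKM in controls and 7.63, 7.38 and 0.561 with SeMSNs (2.61 ± 0.863; edgeR adjusted p = 0.268). Col4a1 was at 11.7, 11.7 and 12.9 against 5.32, 5.97 and 11.8 (−0.68 ± 0.316; edgeR adjusted p = 0.356) and Col4a2 at 17.2, 14.1 and 15.5 against 6.91, 7.85 and 16.6 (−0.61 ± 0.347; edgeR adjusted p = 0.43). SeMSNs library 3 was within the range of the controls for all 3 chains, and without libraries 1 and 2 the log2 differences were −0.54, −0.03 and 0.10. Endothelial markers, from the cells that rest on the Col4a1 and Col4a2 network, summed to 28.9 to 29.1 FPKM in brain controls and 26.7 to 29.4 with SeMSNs. Of these 10 genes 5 were lower, 2 of them at an unadjusted p under 0.05, beside 8.03% of all genes. Pericyte and smooth muscle markers were lower for 7 of 9 genes, with sums of 49.5 to 58.5 and 46 to 53.3 FPKM. The part of these cells in the chains was not tested. For the type I and III chains the groups overlapped: Col1a1 at 0.897, 0.766 and 0.844 against 0.815, 0.927 and 0.744, Col1a2 at 0.589, 0.659 and 0.885 against 1.17, 0.893 and 0.425 and Col3a1 at 0.212, 0.192 and 0.194 against 0.115, 0.307 and 0.125 FPKM.

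**Figure D5:**
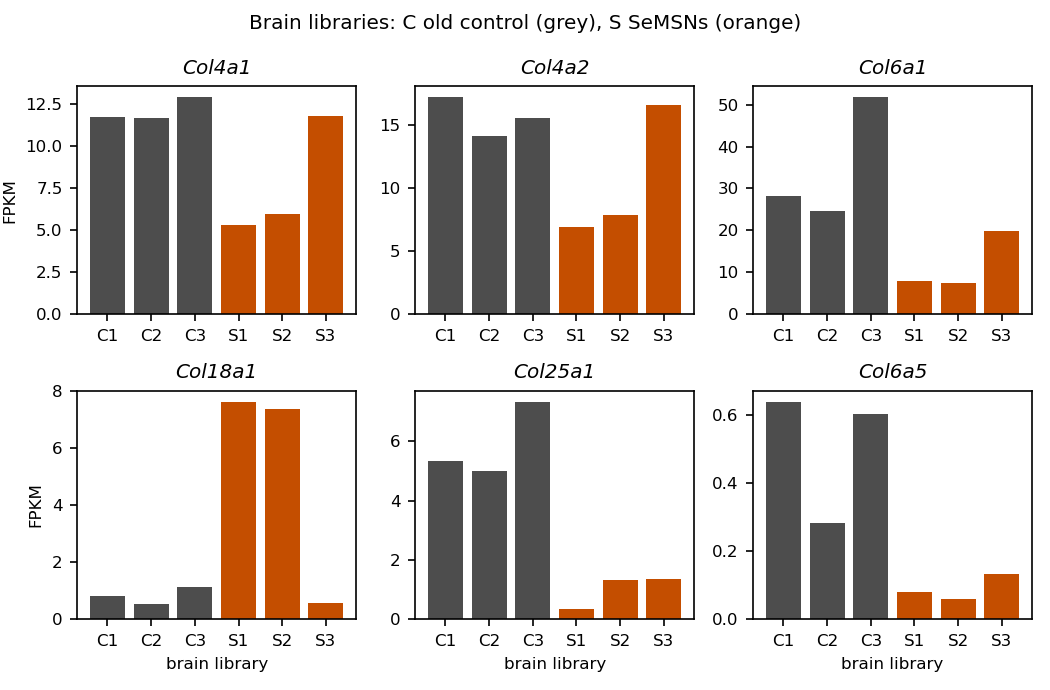
FPKM of 6 collagen chains in the 6 brain libraries (C, old control in grey; S, SeMSNs in orange); each bar is 1 library. Col4a1, Col4a2 and Col18a1 set libraries S1 and S2 apart from the other 4, whereas Col25a1, Col6a5 and Col6a1 are lower in all 3 SeMSNs libraries than in any control.

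When SeMSNs library 3 was left out, so that the 2 cerebellar libraries stood against 3 controls, edgeR called 11 chains in brain, beside 17.2% of all genes. Of these, Col4a1, Col4a2, Col6a1, Col6a2, Col6a5, Col24a1, Col25a1 and Col26a1 were lower and Col5a3, Col17a1 and Col18a1 higher. For Col18a1 the log2 difference was then 3.14 and for Col4a1 −1.16 (edgeR adjusted p = 0.00154 and 0.00258). The 5 chains DESeq2 called with all libraries were Col6a1, Col6a5, Col25a1 and Col26a1, lower, and Col18a1, higher, beside 4.23% of all genes.

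In kidney the median log2 difference was 0.02 over 30 chains and 0.00229 over all genes. The basement membrane sum was 89.2 ± 10.3 FPKM in controls and 83.4 ± 9.22 with SeMSNs (SD, n = 3), a difference within the spread. Col4a3 was at 22.1, 25.6 and 22.3 against 26.5, 22.6 and 17.3 FPKM (−0.11 ± 0.162) and Col4a4 at 18.4, 22.02 and 18 against 23.4, 18.5 and 18.4. The groups overlapped for both chains, and 7 markers of podocytes, the cells that secrete them, summed to 67.2, 75.3 and 56.3 FPKM in controls and 77.3, 69.9 and 60.8 with SeMSNs.

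The smallest p in kidney was that of Col16a1, a FACIT chain, at 1.6, 1.36 and 1.54 FPKM in controls and 2.1, 2.51 and 2.01 with SeMSNs (0.52 ± 0.16; edgeR adjusted p = 0.772). It was higher in all 3 SeMSNs libraries than in any control, and was the 1 chain at an unadjusted p under 0.05, beside 2.52% of all genes that were higher and 3.59% that were lower. Col1a1 was at 0.939, 0.781 and 0.98 against 1.07, 1.11 and 1.43 (0.37 ± 0.199; edgeR adjusted p = 0.772), with no overlap on FPKM and overlap on TMM-scaled counts. These were the 2 of 30 chains whose FPKM did not overlap, both higher, beside 13.3% of all genes, 8.74% higher and 4.52% lower. Col5a3, Col6a2 and Col4a1 came next by p.

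Col5a3 was at 0.566, 0.431 and 0.714 against 0.63, 0.808 and 0.942 FPKM, and Col6a2 at 0.844, 0.637 and 0.56 against 0.671, 0.949 and 0.979. Col4a1 was at 19.3, 20.7 and 31.6 against 21.99, 18.8 and 20.7 (−0.28 ± 0.218) and Col4a2 at 14.5, 16.3 and 23.9 against 17.1, 15.1 and 16.4 (−0.23 ± 0.211). Control library 3 was the high one for both type IV chains, and without it the differences were 0.0352 and 0.0724. It was the highest control for 15 of 30 chains, beside 24.3% of all genes, and held the highest tubular injury sum. Endothelial markers were lower with SeMSNs for 10 of 10 genes, 5 of them at an unadjusted p under 0.05, beside 3.59% of all genes, with a sum of 58.9, 59.9 and 43.1 FPKM in controls and 40.1, 39.1 and 43.1 with SeMSNs. Control library 3 thus held the lowest endothelial sum of the controls and the highest Col4a1 and Col4a2. The part of tubular injury and of endothelial cells in these chains was not tested. Col1a2 was at 1.2, 1.15 and 1.16 against 1.19, 1.39 and 1.45, Col3a1 at 0.765, 0.681 and 1.09 against 0.915, 1.05 and 0.965 and Col6a1 at 2.99, 2.78 and 2.68 against 2.54, 2.81 and 3.3 FPKM, and these groups overlapped.

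In gastrocnemius the median log2 difference was −0.06 over 34 chains and −0.01 over all genes. No tested chain had groups without overlap, beside 16.3% of all genes, and none of either direction had an unadjusted p under 0.05, beside 6.27% higher and 6.71% lower. The controls spread widely. Col3a1 was at 0.642, 1.39 and 2.83 FPKM in controls and 1.28, 1.45 and 1.69 with SeMSNs (−0.07 ± 0.401). Col1a1 was at 0.799, 1.32 and 1.69 against 0.949, 1.33 and 1.33, and Col1a2 at 0.738, 1.07 and 1.74 against 0.941, 1.14 and 1.28. The SeMSNs values of these 3 fibrillar chains lay inside the range of the controls.

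The type IV pair and Col6a1 showed the same spread. Col4a1 was at 7.69, 14.98 and 23.8 FPKM against 10.7, 9.24 and 12.1 (−0.47 ± 0.321; edgeR adjusted p = 0.543), Col4a2 at 9.14, 14.3 and 19.7 against 10.6, 8.91 and 11.5 (−0.42 ± 0.247; edgeR adjusted p = 0.49) and Col6a1 at 3.14, 3.81 and 8.58 against 4.65, 4.21 and 5.52 (−0.06 ± 0.324). Control library 1 was the lowest control for 24 of 34 chains and control library 3 the highest for 24, where the shares over all genes were 52.4% and 47.6%. The fibroblast sums fall in the same order, and the part of fibroblasts in these values was not tested.

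The smallest p in gastrocnemius was that of Col11a2, a fibrillar chain, at 0.185, 0.367 and 1.11 FPKM against 0.751, 0.848 and 1.55 (0.99 ± 0.545; edgeR adjusted p = 0.462). Without control library 3 it was the 1 chain called, at 1.92, beside 2.51% of all genes. Col19a1 was at 0.0793, 0.137 and 0.111 against 0.0894, 0.0521 and 0.0629 and Col5a2 at 0.59, 1.25 and 1.54 against 0.742, 0.885 and 0.873 FPKM, with overlap in both. Col7a1, high in muscle, was at 5.67, 6.24 and 5.22 against 2.76, 7.54 and 7.22 (0.03 ± 0.324). Col17a1, a transmembrane chain of epithelial hemidesmosomes, reached the minimum here through SeMSNs library 2 alone, at 0.0428, 0.706 and 0.0782 FPKM with SeMSNs against 0, 0.0387 and 0.0382 in controls, and was not tested.

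Over the 3 tissues together, a common effect, taken as the mean of the 3 tissue differences, was called for 0 of 43 chains, beside 0.0889% of all genes. An unadjusted p under 0.05 was found for 5 chains, beside 17.3%. Col18a1 was the 1 higher, at 0.83 ± 0.331, beside 7.95% of all genes. The 4 lower, beside 9.33%, were Col4a1 (−0.49 ± 0.195), Col6a1 (−0.55 ± 0.225), Col4a2 (−0.43 ± 0.18) and Col8a1 (−0.68 ± 0.299), with edgeR adjusted p from 0.222 to 0.258 over the 5. Such a mean can differ from 0 through 1 tissue. Col18a1 differed by 2.61 in brain, while control and SeMSNs means were 9.04 and 9.26 FPKM in kidney and 0.439 and 0.417 in gastrocnemius. Col6a1 differed by −1.58 in brain, with 2.82 and 2.88 FPKM in kidney and 5.18 and 4.79 in gastrocnemius. The mean FPKM of Col4a1, Col4a2 and Col8a1 was lower with SeMSNs in all 3 tissues, but in kidney and gastrocnemius the groups overlapped for each chain. Kidney log2 differences of Col4a1 and Col4a2 were 0.0352 and 0.0724 without kidney control library 3. Kidney Col8a1 was at 1.49 ± 1.33 FPKM in controls and 1.2 ± 0.355 with SeMSNs (SD, n = 3). Without brain SeMSNs library 3, Col18a1, Col4a1, Col4a2 and Col6a1 were called, beside 3.32%; without brain SeMSNs libraries 1 and 2, which leaves 1 SeMSNs library in brain, none was, and Col18a1 stood at −0.199. An effect that differs among tissues was called for 0 chains, beside 0.0333%, and Col6a5, Col18a1, Col25a1 and Col6a1 had an unadjusted p under 0.05, beside 9.96%. Without brain SeMSNs library 3, Col18a1 and Col6a1 were called, beside 2.76%.

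The genes that fold, process, bind and remove collagen were taken as 7 lists, and none of their members was called in any of the 3 tissues. In gastrocnemius, 9 of 11 processing and crosslinking genes were lower with SeMSNs and 4 of these had an unadjusted p under 0.05, beside 6.71% of all genes, with a median log2 difference of −0.55. Loxl1, a lysyl oxidase that crosslinks matrix fibres, was at 3.77, 4.88 and 4.42 FPKM in controls and 1.44, 2.16 and 2.2 with SeMSNs, with no overlap (−1.15 ± 0.21; edgeR adjusted p = 0.181). Lox, of the same enzyme family, was at 0.945, 3.05 and 2.71 against 0.6, 0.993 and 0.573 (−1.58 ± 0.377; edgeR adjusted p = 0.293). In the same libraries the median over the fibrillar chains, the substrates of these enzymes, was −0.06.

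Most TGF beta and fibrosis genes were lower with SeMSNs in each tissue. In kidney 14 of 17 were lower, with a median of −0.36, and 3 of them had an unadjusted p under 0.05, beside 3.59% of all genes. In brain 12 of 17 were lower, with a median of −0.15. There 1 lower and 2 higher genes had an unadjusted p under 0.05, beside 8.03% and 7.4%. In gastrocnemius 14 of 17 were lower, with a median of −0.32, and 8 of them had an unadjusted p under 0.05, beside 6.71%. Ctgf, a matricellular protein induced by TGF beta, was at 4.7, 12.6 and 19.3 FPKM against 2.51, 3.92 and 3.59 (−1.81 ± 0.395; edgeR adjusted p = 0.276). Of the collagen-binding proteins, 11 of 13 were lower and 4 of these had an unadjusted p under 0.05, against the same 6.71%. The thrombospondin Thbs1 was at 1.31, 4.54 and 25.6 against 0.787, 1.28 and 1.45 (−3.07 ± 0.866; edgeR adjusted p = 0.307). For Ctgf, Lox and Thbs1, control library 1 was the lowest control, as it was for most chains. Markers of some other cells were lower in the same libraries, where the median log2 difference over all genes was −0.01. Of tendon markers 4 of 5 tested were lower, with a sum of 13.4, 22.9 and 34 FPKM in controls and 11.2, 20.1 and 15.5 with SeMSNs. Of pericyte and smooth muscle markers 8 of 9 were lower, with a sum of 143, 194 and 231 against 152, 165 and 182, and of Schwann cell markers 6 of 6, with a sum of 13.4, 24.4 and 21.3 against 12.2, 12.1 and 15.8. In each of these 3 lists 1 gene had an unadjusted p under 0.05, no gene was at 0 in all 6 libraries, and the groups of sums overlapped. Further lists went both ways. Macrophage markers were lower for 9 of 9 genes and endothelial markers for 9 of 10. Adipocyte markers were higher for 5 of 5 genes tested and neuromuscular junction markers for 4 of 6. The part of these cells in the values of the matrix genes was not tested.

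In brain, 10 of 15 basement membrane partners (laminins, nidogens, perlecan and agrin) were lower and 5 of these had an unadjusted p under 0.05, beside 8.03% of all genes, with a median of −0.23. In kidney, 2 of 19 folding and modification genes were higher at an unadjusted p under 0.05, beside 2.52% of all genes. The collagen chaperone Serpinh1 was at 11.8, 11.1 and 14.8 FPKM in controls and 25, 21.7 and 15.7 with SeMSNs (0.68 ± 0.215; edgeR adjusted p = 0.772). P3h3, of the prolyl 3-hydroxylase family, was at 0.406, 0.412 and 0.344 against 0.755, 0.655 and 0.701 (0.82 ± 0.186; edgeR adjusted p = 0.735). All 3 SeMSNs values were above all controls in both. Breakdown enzymes with their inhibitors had at most 3 members at an unadjusted p under 0.05 in a tissue, and collagen receptors at most 1, beside 15.4% of all genes in brain, 6.11% in kidney and 13% in gastrocnemius.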

How the data were processed

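The authors deposited whole-number counts per gene and FPKM for 18 libraries. The build is GRCm38 per the submitters' processing notes; the aligner, counter and counting strand are not stated in the labels or the table. FPKM as deposited equals count over gene length and library total (17224 genes, largest fractional difference 7.21e-05). Of 43 chains, 41 have the coordinates of GENCODE M21, and exons of 12 overlap those of another gene, so their reads may be shared.

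Counts were fitted in R 4.3.3 with edgeR 4.0.16: filterByExpr (minimum count 10, total 15), TMM, glmQLFit and glmQLFTest, Benjamini-Hochberg over all genes tested, threshold 0.05. Each tissue was fitted alone, the control libraries of 3 tissues together, and all 18 libraries in 6 groups for common and differing effects. The standard error is the absolute log2 fold change over the square root of F. Where a group had at most 3 counts, a ratio per total count with an exact interval replaces the fitted fold. The fits were tested on simulated data. Alternatives were DESeq2 1.42.0, limma 3.58.1 on log2(FPKM + 1) and log2(FPKM + 0.1), RLE scaling, no filter, a replicate block, and leaving out libraries; leaving brain SeMSNs libraries 1 and 2 out of the test of differing effects was chosen after seeing the data.

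Values in every library are given for Col1a1, Col1a2, Col3a1, Col4a1, Col4a2 and Col6a1, the 5 smallest p and the 3 highest levels per tissue, the 3 largest fold changes each way per tissue contrast, and up to 3 genes per list; other chains were named as their partners or after their values were seen. The members, lists and markers were chosen with earlier results of these data known. No 2 replicates agreed within sampling noise (chi-square over degrees of freedom 15.8 to 127 in 18 pairs).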

Additional observations from a re-analysis of the deposited data

How the results depend on the processing

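Counts of called chains stayed within 1.5 times of their value under RLE scaling, with no filter on low counts and with the replicate block. Whether replicate numbers pair the libraries is not settled, and the main fits did not pair them. Deviations of libraries with the same number correlated at −0.119 to 0.0976 within a tissue and −0.0477 to 0.0945 across tissues. In gastrocnemius and kidney controls these were 0.0606, 0.0774 and 0.0945, with at most 0.0212 for other numbers. Brain and gastrocnemius controls had 0.0476, 0.0216 and 0.0437, and negative values for other numbers. Brain and kidney controls had 0.0421, 0.0205 and 0.0151, and at most 0.00729 for other numbers. With SeMSNs, gastrocnemius and kidney had −0.035, 0.055 and 0.0301, and up to 0.0609 for other numbers. With the replicate block, 0 chains were called in each treatment comparison and 34, 30 and 31 between tissues. DESeq2 called 5 in brain. Between gastrocnemius and kidney, limma called 17 with a pseudocount of 1 and 20 with 0.1, in place of 31; the cause was not tested. Leaving out 1 library gave 0 to 11 chains in brain, 0 to 1 in gastrocnemius, 0 to 4 for the common effect and 0 to 2 for differing effects. Without brain SeMSNs libraries 1 and 2, brain, the common effect and the differing effects had 0 chains called. That leaves 1 SeMSNs library in brain, assumed to vary like the other groups (in the brain fit, like the 3 controls), so these counts of 0 say little. Between kidney and brain, 6 chains called in controls were not called in SeMSNs libraries: Col16a1, Col18a1, Col6a2, Col6a4, Col6a5 and Col6a6.

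The differences below changed sign, and edgeR called none of them in either setting. Without brain SeMSNs libraries 1 and 2, Col18a1 went from 2.61 to −0.54 in brain, where DESeq2 called it with all libraries, and Col17a1 from 1.93 to −3.07. Col18a1 (common effect) was then at −0.199, Col1a2 in brain at −0.731 and Col4a2 in brain at 0.0953 in place of −0.61; the cause was not tested. With the replicate block in gastrocnemius, Col1a2 was at 0.0199, Col3a1 at 0.108, Col6a1 at 0.043 and Col7a1 at −0.0644. With limma at pseudocounts 1 and 0.1, Col6a1 was at 0.00265 and 0.0214 in gastrocnemius and 0.0207 and 0.0256 in kidney, Col7a1 at −0.0622 and −0.0943 in gastrocnemius, and Col3a1 there at 0.0774 with 0.1. With 1 library left out, brain values ran from −0.126 to 0.00527 for Col1a1, −0.127 to 0.482 for Col1a2 and −0.753 to 0.0953 for Col3a1. Kidney values ran from −0.00628 to 0.434 for Col3a1, −0.427 to 0.0352 for Col4a1, −0.38 to 0.0724 for Col4a2, −0.24 to 0.043 for Col4a3, −0.096 to 0.0739 for Col4a4 and −0.101 to 0.0909 for Col6a1. Gastrocnemius values ran from −0.227 to 0.168 for Col1a1, −0.222 to 0.298 for Col1a2, −0.415 to 0.537 for Col3a1, −0.258 to 0.449 for Col6a1 and −0.17 to 0.357 for Col7a1.

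Ratios of class sums, SeMSNs over control, moved with single chains or libraries. That of other chains in brain was 0.61, 0.877 without Col6a1 and 0.729 without control library 3. That of fibrillar chains was 1.13 in brain and 0.955 without Col5a1, and in kidney 1.09 and 1.4 without control library 3. That of basement membrane chains in brain was 0.676 and 0.506 without SeMSNs library 3.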
